A study of Mus musculus with 6 samples.

Results

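Cd96, its paired receptor genes Cd226 and Tigit, and the genes of their ligands, Pvr and Pvrl2, were taken by symbol from the deposited count table, which gave 5 of its 23337 genes. The table held 6 libraries of polyadenylated RNA from mouse hematopoietic stem and progenitor cells (HSPCs) transformed with MLL-AF9, the fusion oncogene formed when MLL (Kmt2a) joins AF9 (Mllt3) in acute leukemia. By their labels, replicates 1, 5 and 6 had grown in pro-lymphoid culture and replicates 2, 3 and 4 in pro-myeloid culture, 3 libraries each. All 6 carried MLL-AF9, so no untransformed control was compared. The sources used here do not give the cytokines, any feeder cells, the number of transformed clones, or the strain and age of the animals. Nothing in the labels says whether replicates came from separate cultures or animals, so the p-values below measure only library-to-library spread, part or all of which may be technical.

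Cd96 (also called TACTILE), Cd226 (DNAM-1) and Tigit are transmembrane receptors of the immunoglobulin superfamily that are best known from T and NK cells. They compete for ligands of the nectin and nectin-like families: all of them bind the poliovirus receptor Pvr (CD155), and Cd226 and Tigit also bind Pvrl2 (nectin-2), whose relatives hold cells together at adherens junctions. Cd226 activates T and NK cells, Tigit inhibits them, and inhibitory as well as activating roles have been described for Cd96. In human acute myeloid leukemia, CD96 has been used as a surface marker of leukemia stem cells.

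The members were chosen by the measured difference between the cultures, Cd96 for its large difference and the others as its relatives. The lymphoid against myeloid values of the members are therefore given as a description, with no test. Values are CPM, read counts scaled to a common library size with TMM factors (trimmed mean of M-values), and the libraries held 34972488 to 46724382 counts. Of the 5 members, Cd96, Pvr and Pvrl2 passed the filter on low counts, as did 12477 genes of the table. In the fit over all genes, 1 of these 3 members was called (edgeR adjusted p under 0.05), as were 38.6% of all genes tested (17.4% higher and 21.3% lower in pro-lymphoid culture). The groups did not overlap for that same member, as for 53.5% of all genes tested (26.4% with pro-lymphoid higher and 27.2% with it lower). Since the choice of members used this contrast, nothing is read from these shares. The value of each member in each library is drawn in the plot of CPM by gene.

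**Figure D1:**
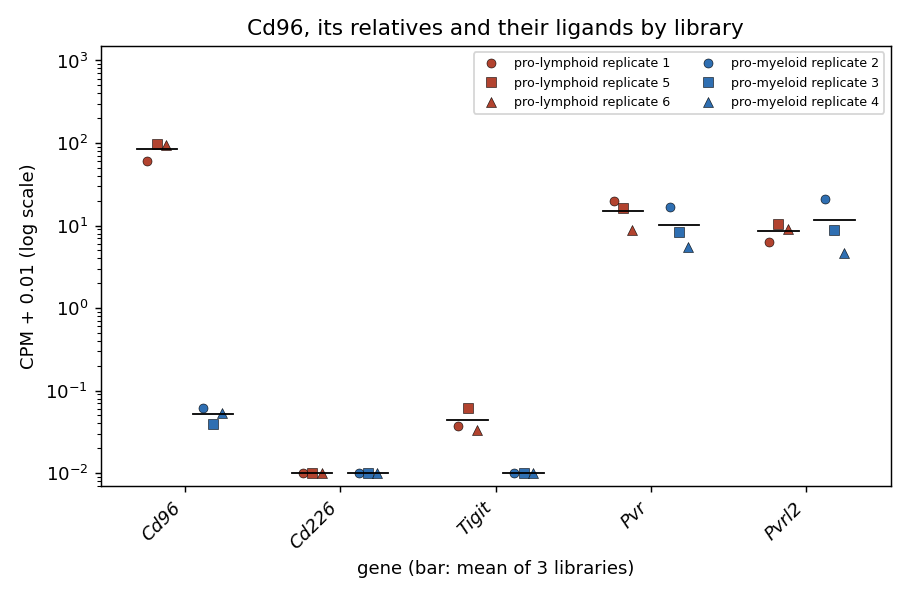
CPM plus 0.01 (y axis, log scale) of Cd96, Cd226, Tigit, Pvr and Pvrl2 (x axis) in the 3 pro-lymphoid (red) and 3 pro-myeloid (blue) libraries, with a symbol for each library and a bar at the mean of each group. Cd96 lies at 59.8 to 97.5 CPM against 0.0296 to 0.0521 CPM, Cd226 lies at 0 in every library, and both ligand genes overlap between the groups.

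Cd96 was abundant in pro-lymphoid culture and close to absent in pro-myeloid culture. It stood at 59.8, 97.5 and 95.3 CPM in pro-lymphoid replicates 1, 5 and 6 (2205, 3730 and 4097 counts), and at 0.0521, 0.0296 and 0.0433 CPM in pro-myeloid replicates 2, 3 and 4 (2, 1 and 2 counts). Every pro-lymphoid library was far above every pro-myeloid library, and within pro-lymphoid culture replicate 1 was lower than the others, by at most 1.63-fold. The group means were 84.2 ± 21.2 and 0.0417 ± 0.0113 CPM (SD, n = 3). Over the summed counts (10032 against 5) the ratio was 2010, with an exact 95% counting interval of 861 to 6193. The pro-myeloid level rests on 5 reads, so the interval, which covers counting error only, is wide. Across the other scalings and each library left out, the log2 ratio of means ran from 10.78 to 11.18 around 10.98. Per kilobase of exon, Cd96 exceeded 81.4% of the tested genes in pro-lymphoid culture, and in pro-myeloid culture 0.986% of them. In bulk RNA, fewer cells with a transcript and less transcript per cell cannot be told apart.

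The paired receptors of Cd96 were not found at comparable levels. Cd226 had 0 counts in all 6 libraries, which at a floor of 3 counts over all libraries allows up to 0.0127 CPM. Tigit, the inhibitory receptor, had 1, 2 and 1 counts in pro-lymphoid replicates 1, 5 and 6 and 0 in the pro-myeloid libraries. At 0.0342 ± 0.0158 CPM (SD, n = 3) the pro-lymphoid level of Tigit lies at the order of the floor (0.0254 CPM for 3 counts over the 3 libraries), so no fold is given. In pro-lymphoid culture the receptor genes therefore ranked Cd96, Tigit and Cd226, at 38.6 ± 9.71, 0.0355 ± 0.0164 and 0 CPM per kilobase of exon (SD, n = 3), and the levels of Tigit and Cd226 cannot be separated at this depth.

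Both ligand genes were detected in all 6 libraries, in the lower part of the range of tested genes. Per kilobase of exon, Pvr exceeded 36.6% of the tested genes in pro-lymphoid culture and Pvrl2 26.2%, and in pro-myeloid culture the shares were 28.8% and 28.1%. Pvr stood at 20.1, 16.2 and 8.84 CPM in pro-lymphoid replicates 1, 5 and 6 and at 16.7, 8.26 and 5.48 CPM in pro-myeloid replicates 2, 3 and 4. The groups overlapped, with means of 15.0 ± 5.70 and 10.2 ± 5.85 CPM (SD, n = 3). Pvrl2 stood at 6.35, 10.4 and 8.98 CPM in pro-lymphoid replicates 1, 5 and 6 and at 21.1, 8.91 and 4.62 CPM in pro-myeloid replicates 2, 3 and 4. These groups overlapped as well, with means of 8.59 ± 2.07 and 11.6 ± 8.57 CPM (SD, n = 3). The ratio of the means was 1.48 for Pvr and 0.743 for Pvrl2, both smaller than the spread between replicates on the log scale. GENCODE M21 lists an antisense gene whose exons overlap those of Pvrl2, and the counting did not use strand, so reads of the 2 cannot be told apart.

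Within pro-myeloid culture, replicate 2 was the highest library for both ligand genes. The spread of Pvrl2 was larger in pro-myeloid than in pro-lymphoid culture (SD 8.57 against 2.07 CPM), while that of Pvr was similar in both (5.85 and 5.70 CPM). Pvr was 2.43-fold and Pvrl2 3.13-fold higher in replicate 2 than the mean of replicates 3 and 4. This library also stood apart over all genes, at 52.9 on the second principal component (7.91% of the variance) against -32.0 and -19.5 for the other pro-myeloid libraries. Without it, the ratio of pro-lymphoid to pro-myeloid means was 2.19 for Pvr and 1.27 for Pvrl2, so that the direction of Pvrl2 turned. The pro-myeloid means were then 6.87 ± 1.96 and 6.76 ± 3.04 CPM (SD, n = 2). The summed level of 12 stromal cell markers was also highest in that library, at 54.3 CPM against 14.7 and 26.7 CPM in pro-myeloid replicates 3 and 4 and 1.93 to 19.4 CPM in the pro-lymphoid libraries. Most of this sum came from Col5a1, Pdgfrb and Thy1, and Thy1 is also on the list of T-cell markers. Col1a1, a collagen gene of fibroblasts, had 55, 12 and 17 counts in pro-myeloid replicates 2, 3 and 4 and 3, 1 and 0 in the pro-lymphoid libraries, and Pdgfra had 5 counts, all in pro-myeloid replicate 2. Other markers of the list went the other way. Fbn1 had 3, 12 and 41 counts in pro-myeloid replicates 2, 3 and 4, Cxcl12 had 1, 0 and 4, and Postn had 1, 0 and 3. Pdgfrb was highest in pro-lymphoid replicate 6, at 19.4 CPM against 15.6 CPM in pro-myeloid replicate 2. The fibroblast genes Col1a2, Col3a1, Dcn and Lum had 0 counts in all 6 libraries. The part of such cells in the ligand levels was not tested.

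**Figure D2:**
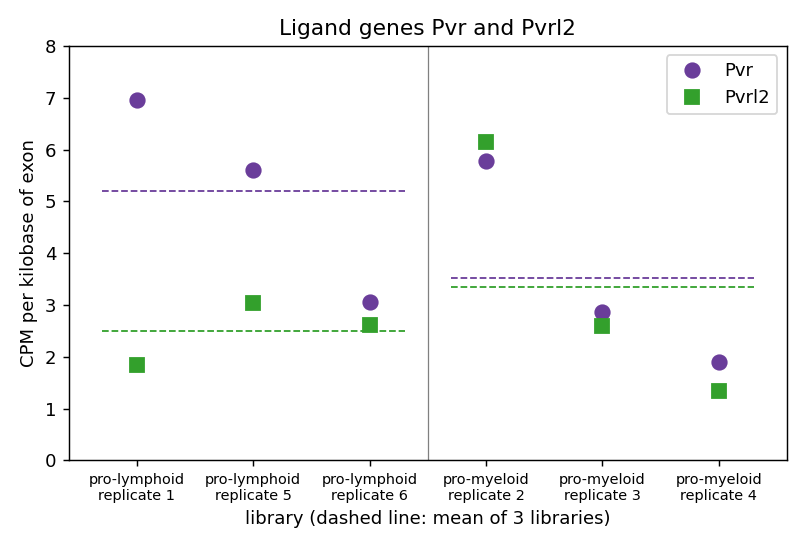
CPM per kilobase of exon (y axis) of Pvr (circles) and Pvrl2 (squares) in each library (x axis), with a dashed line at the mean of each group of 3. Pro-myeloid replicate 2 is highest in its group for both genes, and the 2 genes lie apart in pro-lymphoid replicates 1 and 5 but not in replicate 6.

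Compared per kilobase of exon, the balance of the ligands and of Cd96 to its ligand Pvr varied by library. Pvr exceeded Pvrl2 by 3.77-fold, 1.85-fold and 1.17-fold in pro-lymphoid replicates 1, 5 and 6, and the ratio was 0.943, 1.11 and 1.42 in pro-myeloid replicates 2, 3 and 4, so the groups overlapped. The ratio of Cd96 to Pvrl2 was 14.9, 14.8 and 16.8 in pro-lymphoid replicates 1, 5 and 6. Pvrl2 is named above as a ligand of Cd226 and Tigit, so this ratio is not one of receptor to ligand. The ratio of Cd96 to Pvr was uneven, at 3.95, 7.97 and 14.3, since Pvr was highest in the library where Cd96 was lowest. In pro-lymphoid culture the level per kilobase of Cd96 (38.6 ± 9.71) was thus above that of Pvr (5.21 ± 1.98) and Pvrl2 (2.49 ± 0.602), although the lowest Pvr (3.06) and the highest Pvrl2 (3.03) nearly met. In pro-myeloid culture Pvr (3.52 ± 2.03) and Pvrl2 (3.36 ± 2.49, SD, n = 3) did not differ beyond their spread, and Cd96 lay at 0.0191 ± 0.00519.

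Cd96 lies on chromosome 16 (mm10, 46035657 to 46120248, minus strand), with Tigit 2371-kb lower on the chromosome (43648861 to 43664184) and another nectin gene, Pvrl3, as the next counted gene on the other side. Pvr (19903578 to 19921143) and Pvrl2 (19716644 to 19749573) lie 154-kb apart on chromosome 7, and Cd226 lies on chromosome 18. Position was not part of how the members were chosen, so the counted genes within 1 Mb of Cd96 were examined. Of 15 such genes, 9 were tested, 3 were higher (Gcet2, Btla and Plcxd2), 3 were lower (Atg3, Slc35a5 and Ccdc80) and 3 did not pass (Tmprss7, Abhd10 and Tagln3). Their calls (66.7% of 9) compare with 38.6% of all genes tested, and their median log2 fold change was -0.23, that of all genes tested being 0.00 when rounded. Within 500 kb, 2 of 5 tested genes were called. Without pro-lymphoid replicate 6 or without pro-myeloid replicate 4, 3 of the genes within 1 Mb were called.

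The neighbours Gcet2 and Pvrl3, like Cd96, had reads in every pro-lymphoid library and few or none in pro-myeloid culture. Gcet2 (germinal center expressed transcript 2, now Gcsam), which encodes a signalling adaptor of germinal center B cells and lies at -413 kb from Cd96, stood at 17.0, 8.68 and 19.9 CPM in pro-lymphoid replicates 1, 5 and 6 and at 0 counts in all pro-myeloid libraries. Within pro-lymphoid culture Gcet2 was lowest in replicate 5, where Cd96 was highest. It was at least 605-fold higher in pro-lymphoid culture, computed against 3 counts over the group (edgeR adjusted p = 0.000794). Pvrl3, which encodes nectin-3 and lies at 275 kb on the other side of Cd96 with no counted gene in between, stood at 0.136, 0.575 and 0.744 CPM in pro-lymphoid replicates 1, 5 and 6 and at 0 in the pro-myeloid libraries (59 against 0 counts). Its level was low and it did not pass the filter. The limit for Pvrl3 is at least 19-fold higher, and tested without the filter it was called as higher (edgeR adjusted p = 0.0265).

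Other neighbours of Cd96 differed by less. Plcxd2, the nearest counted gene at -25.2 kb, was at 11.2 ± 1.91 against 6.52 ± 1.36 CPM (SD, n = 3, log2 fold change 0.79 ± 0.24, SE, edgeR adjusted p = 0.0351). Btla, an inhibitory receptor gene of lymphocytes at -783 kb, rose by 1.35 ± 0.35 on the log2 scale. Btla levels were 45.1, 24.2 and 17.0 CPM in pro-lymphoid replicates 1, 5 and 6 against 10.2 to 12.5 CPM in pro-myeloid culture. The log2 fold changes of the genes that were lower were -0.51 ± 0.11 for Atg3, an autophagy gene, -0.65 ± 0.16 for Slc35a5, a sugar transporter relative, and -2.60 ± 0.59 for Ccdc80 (SE). The call of Plcxd2 was lost without pro-lymphoid replicate 1 or 6 or pro-myeloid replicate 4, that of Btla without pro-myeloid replicate 3 or 4, that of Slc35a5 without pro-lymphoid replicate 6 or pro-myeloid replicate 4, and that of Ccdc80 without pro-lymphoid replicate 6. Tmprss7, between Gcet2 and Cd96, stood at 1.84 ± 1.05 against 0.551 ± 0.227 CPM (SD, n = 3), without a call (edgeR adjusted p = 0.0507). It was called by DESeq2, with upper-quartile scaling and without pro-lymphoid replicate 5. Slc9a10, beside Gcet2, had 0 counts in all libraries, and Phldb2, between Gcet2 and Cd96, had 2.

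**Figure D3:**
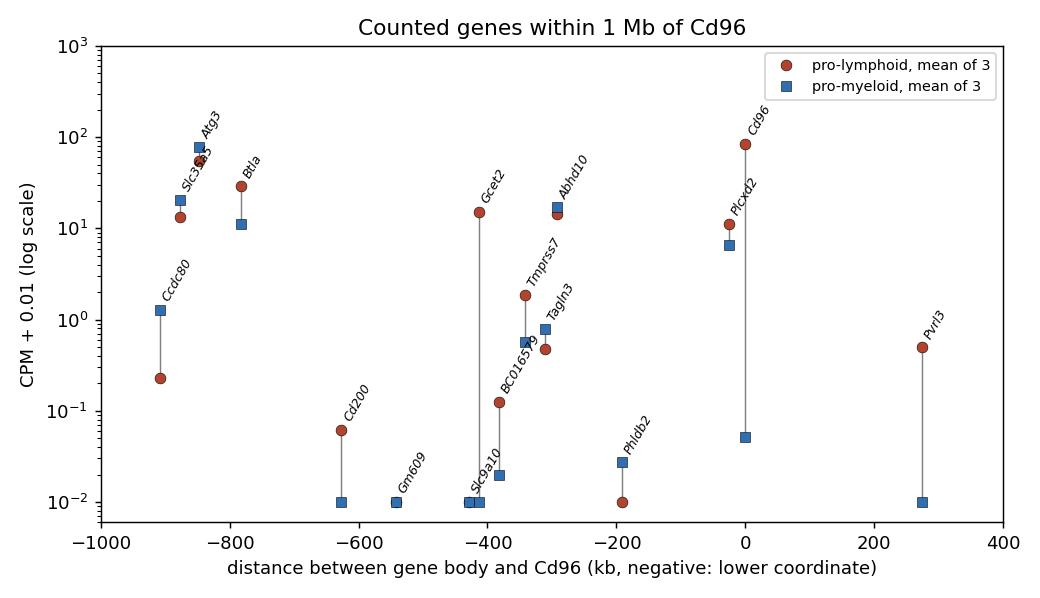
Mean CPM plus 0.01 (y axis, log scale) of Cd96 and the 15 counted genes within 1 Mb of it, against the distance of each gene body from Cd96 (x axis, kb), in pro-lymphoid (circles) and pro-myeloid (squares) culture, means of 3 libraries. Cd96, Gcet2 and Pvrl3 show long lines between the groups, while Plcxd2 and Abhd10, which lie between them, show short ones. The means of BC016579 and Tmprss7, which also lie there, are higher in pro-lymphoid culture.

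The 250 bases before the annotated start of these 3 chromosome 16 genes, and of the nearly silent Tigit for contrast, are shown because Cd96, Gcet2 and Pvrl3 have reads in pro-lymphoid culture and at most 5 in pro-myeloid culture. The sequences are from RefSeq (GRCm38.p6, the same assembly as mm10), 5′ to 3′ on the strand of the gene, and capitals mark matches on either strand. The motif letters searched were TGTGGT for RUNX factors. For ETS factors they were GGAAGT. For GATA factors they were AGATAA, and for the E-box CANNTG, all chosen after the sequences had been seen.
Cd96, chr16:46120249-46120498, minus strand: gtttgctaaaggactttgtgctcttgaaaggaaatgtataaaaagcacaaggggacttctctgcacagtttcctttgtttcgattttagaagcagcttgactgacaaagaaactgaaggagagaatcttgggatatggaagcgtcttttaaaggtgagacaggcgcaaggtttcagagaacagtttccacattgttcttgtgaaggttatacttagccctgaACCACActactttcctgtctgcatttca
Gcet2, chr16:45610190-45610439, plus strand: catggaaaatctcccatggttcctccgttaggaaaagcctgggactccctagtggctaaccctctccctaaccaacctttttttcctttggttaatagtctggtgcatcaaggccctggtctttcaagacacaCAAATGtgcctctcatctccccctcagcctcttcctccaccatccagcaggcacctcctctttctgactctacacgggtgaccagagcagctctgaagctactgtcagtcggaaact
Pvrl3, chr16:46496968-46497217, minus strand: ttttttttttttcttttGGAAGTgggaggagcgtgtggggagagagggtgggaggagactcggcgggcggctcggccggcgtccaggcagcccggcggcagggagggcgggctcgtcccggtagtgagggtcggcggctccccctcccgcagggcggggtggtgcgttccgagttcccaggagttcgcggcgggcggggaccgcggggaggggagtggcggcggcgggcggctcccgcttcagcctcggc
Tigit, chr16:43664185-43664434, minus strand: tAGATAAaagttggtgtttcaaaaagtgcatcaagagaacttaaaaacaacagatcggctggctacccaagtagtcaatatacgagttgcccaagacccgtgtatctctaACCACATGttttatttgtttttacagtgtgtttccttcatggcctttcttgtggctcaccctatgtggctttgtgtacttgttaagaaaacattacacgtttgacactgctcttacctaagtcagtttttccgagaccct

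The windows had little in common. That of Cd96 held 1 match to the RUNX motif, 28 to 23 bases before the start, and none to the other 3 motifs, whereas Gcet2 held 1 E-box and Pvrl3 1 ETS match. The Tigit window also held 1 RUNX match, which overlaps its E-box, and 1 GATA match. Of 32851 RefSeq start sites with a window of the same length, 14% held the RUNX, 19.7% the ETS, 9.99% the GATA and 66.2% the E-box motif. The GC content was 41.2% for Cd96, 51.6% for Gcet2, 73.2% for Pvrl3 and 40.0% for Tigit, against a median of 52.4% over these windows. A match is a description of letters and not evidence of binding.

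Nectins and nectin-like molecules form the wider ligand family. The list used here also holds other receptors of nectins (Crtam and Pvrig) and the scaffold gene Mllt4. Of the 10 listed genes, 9 were counted (Pvrig was not found by that symbol) and 4 were tested, of which 1 was higher and 1 lower in pro-lymphoid culture, a share of 50% of 4 against 38.6% of all genes tested. Their median log2 fold change was -0.43, and 4 genes of the list were called without pro-lymphoid replicate 1 or without pro-myeloid replicate 2. Cadm3, a nectin-like adhesion gene, stood at 1.08, 8.84 and 2.49 CPM in pro-lymphoid replicates 1, 5 and 6 and had 2 counts in all in pro-myeloid culture, for a ratio of 243 (exact 95% counting interval 66.9 to 2012, edgeR adjusted p = 0.00347). Mllt4, which encodes afadin, the scaffold that ties nectins to actin and itself a fusion partner of MLL, fell from 7.07 ± 1.44 to 0.582 ± 0.485 CPM (SD, n = 3, log2 fold change -3.60 ± 0.49, SE, edgeR adjusted p = 0.00143). Neither of these calls was lost under any alternative or left-out library that tested the gene.

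The other nectin family genes were low or did not pass. Cadm1, the ligand of the receptor Crtam, was removed by the filter because pro-lymphoid replicate 1 stood at 0.217 CPM, against 30.7 and 7.19 CPM in replicates 5 and 6 and 0 to 0.182 CPM in pro-myeloid culture. Tested without the filter, Cadm1 was called as higher (edgeR adjusted p = 0.0163). Pvrl4 stood at 0.877 ± 0.288 against 1.18 ± 0.908 CPM and Cadm4 at 1.46 ± 0.505 against 1.98 ± 0.811 CPM (SD, n = 3), both without a call. Pvrl1, a mouse ligand of Cd96, had 1 count in pro-lymphoid culture and 9 in pro-myeloid culture, 8 of the latter in replicate 2. Cadm2 had 1 and 5 counts and Crtam 1 and 0.

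**Figure D4:**
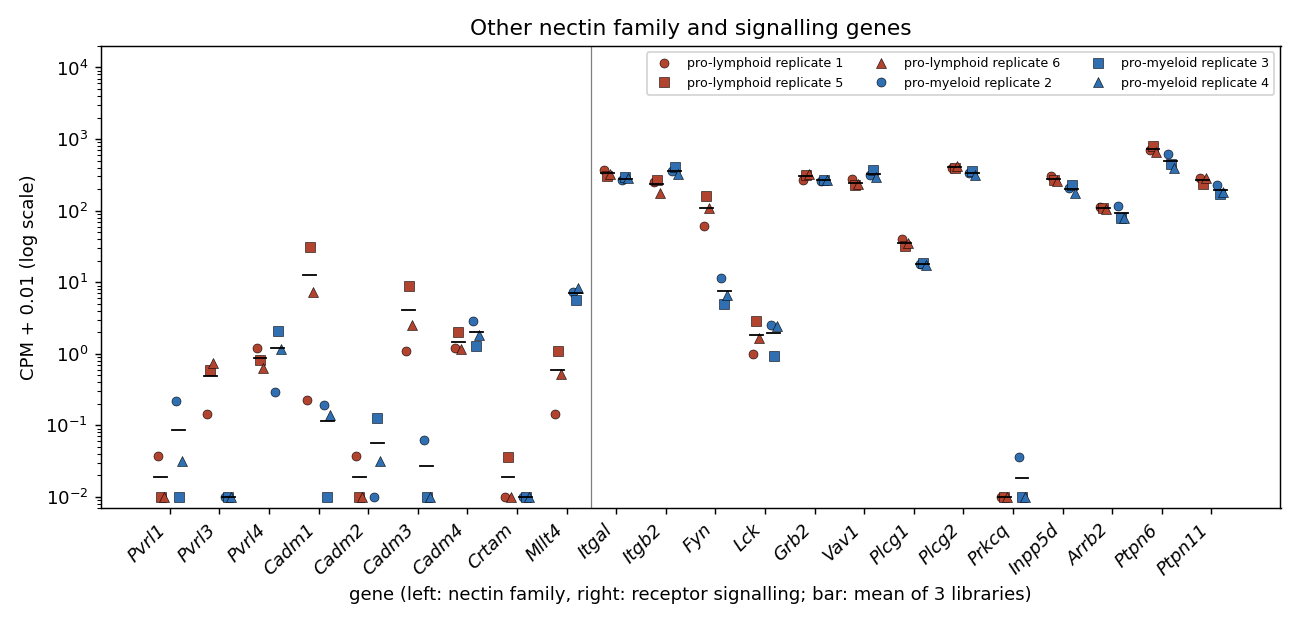
CPM plus 0.01 (y axis, log scale) of 9 nectin family genes (left of the line) and 13 genes of receptor signalling (right) in the 3 pro-lymphoid (red) and 3 pro-myeloid (blue) libraries, with a bar at the mean of each group. Cadm3 and Fyn are higher and Mllt4 is lower in pro-lymphoid culture without overlap, and the groups of Lck, Grb2 and Arrb2 overlap.

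Genes of the signalling machinery known for Cd226 and Tigit were mostly expressed in both cultures. Of 13 listed genes 12 were tested, 4 were higher, 2 were lower and 6 did not pass (median log2 fold change 0.25), a share of 50% against 38.6% of all genes tested. Fyn, the Src family kinase that phosphorylates Cd226, rose from 11.3, 4.94 and 6.63 CPM in pro-myeloid replicates 2, 3 and 4 to 60.9, 161 and 107 CPM in pro-lymphoid replicates 1, 5 and 6. The groups did not overlap (log2 fold change 3.85 ± 0.44, SE, edgeR adjusted p = 0.00072). Plcg1, a phospholipase activated below antigen receptors, rose from 17.9 ± 0.719 to 35.8 ± 4.47 CPM (SD, n = 3, edgeR adjusted p = 0.00197). Inpp5d, which encodes the phosphatase SHIP1 recruited by Tigit, rose by 0.44 ± 0.13 (SE), and Itgb2, the beta chain of LFA-1, which associates with Cd226, fell by 0.64 ± 0.18 on the log2 scale. The call of Inpp5d was lost without any 1 of the pro-lymphoid libraries or without pro-myeloid replicate 4, and that of Itgb2 without pro-lymphoid replicate 6 or pro-myeloid replicate 3. The list had 3 called genes without pro-lymphoid replicate 5 or pro-myeloid replicate 3 or 4, and 2 without pro-lymphoid replicate 6. Prkcq, a kinase of T cells, had 0 and 1 counts.

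Markers of T and NK cells, where Cd96 is best known, were patchy. Of 23 markers, Cd3e, Ncr1, Gzma and Gzmb had 0 counts in all 6 libraries, and 6 markers, these 4 included, had at most 3 counts in each culture. Of 8 tested markers 4 were higher, 2 were lower and 2 did not pass (75% called against 38.6% of all genes tested; median log2 fold change 1.28). Zap70, a T-cell receptor kinase, stood at 7.11 ± 2.89 against 0.0802 ± 0.0762 CPM (SD, n = 3, log2 fold change 6.35 ± 0.65, SE, edgeR adjusted p = 0.000217). Cd5, a receptor of T cells and some B cells, stood at 45.6, 91.9 and 60.3 CPM in pro-lymphoid replicates 1, 5 and 6 against 2.28 to 5.83 CPM (edgeR adjusted p = 0.000469). Klrd1, which encodes CD94 of NK cells, rose by 4.49 ± 0.60, and Nkg7, a gene of cytotoxic granules, fell by 3.33 ± 0.50 on the log2 scale. The 23 markers summed to 57.8 to 124 CPM in the pro-lymphoid libraries, most of it Cd5, against 31.4 to 55.0 CPM in the pro-myeloid ones. The genes of the CD3 complex were at or near 0, with 0 counts for Cd3e, 13 and 23 for Cd3d, 5 and 1 for Cd3g and 15 and 13 for Cd247 over the pro-lymphoid and pro-myeloid groups. Cd2, an adhesion receptor of T and NK cells, did not pass the filter but had 3, 265 and 95 counts in pro-lymphoid replicates 1, 5 and 6 and 0 in pro-myeloid culture, and was called as higher without the filter (edgeR adjusted p = 0.0472). The NK-cell gene Klrb1c was also higher (45 against 11 counts, edgeR adjusted p = 0.0284), and Ncr1 was at 0. Like Nkg7, Thy1 and Prf1 went the other way. Thy1 had 1 count in pro-lymphoid culture and 641, 25 and 136 in pro-myeloid replicates 2, 3 and 4. Its log2 fold change was -9.19 ± 2.23 (SE, edgeR adjusted p = 0.0176), a call lost without pro-lymphoid replicate 6. Prf1 had 10 against 96 counts, did not pass the filter and was not called without it (edgeR adjusted p = 0.0532). The part of T or NK cells in the level of Cd96 was not tested.

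**Figure D5:**
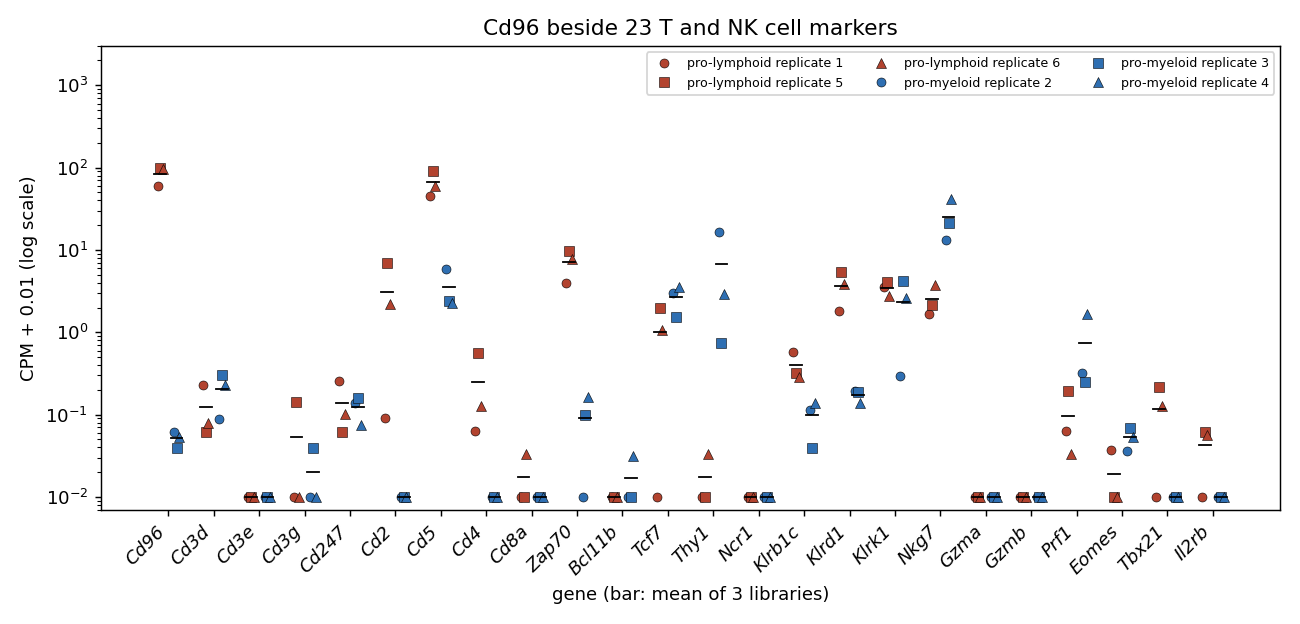
CPM plus 0.01 (y axis, log scale) of Cd96 (leftmost) and 23 markers of T and NK cells (x axis) in the 3 pro-lymphoid (red) and 3 pro-myeloid (blue) libraries, with a bar at the mean of each group. Cd3e, Ncr1, Gzma and Gzmb lie at 0 in every library, and Cd5 lies at 45.6 to 91.9 CPM in pro-lymphoid culture.

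Markers of other cells that can carry these receptors or ligands gave the following counts. Of 12 megakaryocyte and platelet markers, the cells that also bear Cd226, 5 were tested and 1, Vwf, was lower in pro-lymphoid culture, a share of 20% against 38.6% of all genes tested (log2 fold change -1.14 ± 0.31, SE, edgeR adjusted p = 0.0233, lost without pro-lymphoid replicate 1 or 6 or pro-myeloid replicate 3). They summed to 126 to 139 CPM in the pro-lymphoid libraries and 55.5 to 131 CPM in the pro-myeloid ones, with the integrin gene Itgb3 as the largest contributor in every library (36.4 CPM in pro-myeloid replicate 3, where the sum was lowest). Of 8 B-cell markers, 3 were tested and 0 were called by edgeR, DESeq2 and limma-voom (0 at an unadjusted edgeR p under 0.05), against 38.6% of all genes tested by edgeR, at sums of 26.4 to 36.3 and 29.2 to 61.9 CPM. Of 4 tested stromal markers, 3 were lower in pro-lymphoid culture (75%, against 21.3% of all genes tested that were lower), among them Col5a1 with 2 counts over the pro-lymphoid libraries against 1749. Single libraries moved these counts: 0 megakaryocyte genes were called without pro-lymphoid replicate 1 or 6 and 3 without pro-myeloid replicate 2, 1 B-cell gene without pro-lymphoid replicate 1 and 2 without pro-myeloid replicate 2, and 1 stromal gene without pro-lymphoid replicate 6. The hematopoietic gene Ptprc (CD45) was present in both cultures, at 296 and 386 CPM, and the myeloid gene Elane stood at 1.89 and 1509 CPM.

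Surface antigens described on human leukemia stem cells, as CD96 is, did not move as a block. Of 10 genes, all tested, 4 were higher, 2 were lower and 4 did not pass (60% called against 38.6% of all genes tested; median log2 fold change 0.39). Havcr2, which encodes the receptor TIM-3, stood at 22.6, 58.6 and 38.5 CPM in pro-lymphoid replicates 1, 5 and 6 and at 0.234, 0.0296 and 0.0433 CPM in pro-myeloid replicates 2, 3 and 4. Like Cd96, it was low in every pro-myeloid library, and its groups did not overlap (log2 fold change 8.57 ± 0.62, SE, edgeR adjusted p = 4.61e-05). Il2ra, the alpha chain of the interleukin 2 receptor, rose by 4.51 ± 0.61 to 2.75 ± 0.956 CPM. Cd47, the signal that restrains phagocytosis, stood at 394 to 427 CPM in pro-lymphoid and 694 to 785 CPM in pro-myeloid libraries (log2 fold change -0.88 ± 0.12, SE, edgeR adjusted p = 0.00132), and Il1rap fell by 0.99 ± 0.17 on the log2 scale.

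The genes whose pattern over the 6 libraries was most like that of Cd96 were Gem, Spib, Angpt1, Etv4, Kctd14 and Epb4.1l4b. Likeness was the root mean square difference of log2(CPM + 0.5) over the 6 libraries after shifting each of 11318 tested genes to the mean of Cd96, and it ran from 0.28 for Gem to 0.65 for Epb4.1l4b. The measure uses the difference between the cultures, so it is a description. Gem, a small GTPase gene, stood at 49.7, 155 and 125 CPM in pro-lymphoid replicates 1, 5 and 6, lowest in replicate 1 as Cd96 was, and at 0.152 to 0.178 CPM in pro-myeloid culture. Spib, a transcription factor gene of the B-cell and plasmacytoid lineages, stood at 54.2, 146 and 56.5 CPM, and Etv4, an ETS factor gene, at 35.1, 53.6 and 47.7 CPM in pro-lymphoid replicates 1, 5 and 6. Angpt1, the angiopoietin gene, went the other way in replicate 5, at 62.6, 43.7 and 94.0 CPM, and like Cd96 had 5 counts over the pro-myeloid libraries. With 0.1 in place of 0.5 CPM added, 4 of these 6 genes remained among the 6 most alike, while Kctd14 moved to rank 11 and Epb4.1l4b to rank 25. Over the pro-myeloid libraries Kctd14 had 25 counts and Epb4.1l4b 138, so Epb4.1l4b was not near absent there as Cd96 was.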

How the data were processed

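The authors deposited 1 table of raw read counts per gene for 6 libraries. Per the file headers, featureCounts 1.5.1 counted primary alignments over exons of the UCSC mm10 annotation without strand. The submitters' processing notes also name TopHat, Bowtie, Trimmomatic and DESeq2, without versions or settings. Exon lengths are those of the deposited table. Columns were matched to libraries by the numbers in their titles, and 0 columns belonged to other samples.

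Differences were tested in R 4.3.3 by edgeR 4.0.16 using its quasi-likelihood F test after filterByExpr and TMM scaling, with Benjamini-Hochberg adjustment at 0.05 over all genes tested. Log2 fold changes are signed as pro-lymphoid over pro-myeloid, with an SE of the change divided by the square root of F. The procedure was also run on simulated counts, with 200 genes changed and the same dispersion for every gene. That setting is simpler than these data, so no error rate for them is taken from it. CPM used the same factors. A library floor of 3 counts corresponds to 0.0650 to 0.0888 CPM. Intervals (95%, exact) and floors cover counting error only, because they use summed counts and leave out the spread between libraries. PCR copies were not separated by molecular identifiers, so even the counting error may be larger than they show.

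The members and lists were chosen with earlier results of these data known. Named genes were the members, all counted nectin family genes, up to 4 tested genes of each other list with the smallest adjusted p, the tested neighbours of Cd96 and the 6 genes most alike. Genes of the cell type lists at 0 in all libraries were also named. Slc9a10, Phldb2, BC016579, Prkcq, Ptprc, Elane, Pdgfra, Fbn1, Cxcl12, Postn, Cd3d, Cd3g, Cd247, Cd2, Klrb1c, Prf1, Pax5, Blk, Lck, Grb2 and Arrb2 were named besides, after their values were seen. Predicted genes and pseudogenes were not named. Alternatives were RLE, upper-quartile or no scaling, no filter or 1 CPM in 3 libraries, DESeq2 1.42.0, limma-voom (limma 3.58.1), a 500 kb window, another added value, and each library left out.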

Additional observations from a re-analysis of the deposited data

How the results depend on the processing

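The log2 ratio of Cd96 ranged from 10.78 to 11.18 over the scalings, the filter and each library left out, that of Pvr from 0.26 to 1.13 and that of Pvrl2 from -0.82 to 0.34, positive only without pro-myeloid replicate 2. No ratio was computed for Tigit and Cd226, which had 0 counts in a group. No paired analysis was run. The replicate numbers run from 1 to 6 over both groups, and the labels do not say whether libraries of the cultures belong together. The number of genes called between the cultures was 4821, and 3086 (without pro-lymphoid replicate 6) to 5385 (without pro-myeloid replicate 2) with single libraries left out. With single libraries left out, called genes numbered 2 to 4 for the nectin family, 2 to 7 for receptor signalling, 0 to 3 for megakaryocytes, 1 to 4 for stromal cells, 0 to 2 for B cells and 3 to 7 near Cd96. Without the filter, 4 nectin family, 2 megakaryocyte and 1 B-cell gene were called, since more genes were tested. With at least 1 CPM in 3 libraries, 1 stromal gene was called, since fewer were tested. Within 500 kb, 2 genes near Cd96 were called. Calls were followed for 36 tested genes: the nectin family, the neighbours and up to 4 genes of each other list with the smallest adjusted p. Of 24 called among them, 15 kept the call under all alternatives that tested them and 9 lost it under at least 1. The genes most like Cd96 and those named after their values were seen were not part of this check. Depth limits Cd226, Tigit and the pro-myeloid level of Cd96, which rest on 0 to 5 counts.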
